A study of Mus musculus with 4 samples.

Results

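Open chromatin was mapped in B16F10 cells, a mouse melanoma line, and the regions described here are all 3772 open regions of mouse chromosome 16, of 103629 in the genome. They were obtained by merging every chromosome 16 peak in 4 peak lists wherever peaks overlapped by at least 1 bp. The chromosome was chosen with results of these lists known. It was selected on the number of peaks and on the share of regions that both sgScramble lists held and both sgArid1a lists lacked, so those values are given as a description with no test.

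The 2 groups were sgArid1a cells, carrying a guide RNA against Arid1a (n = 2 libraries), and sgScramble cells, carrying a scrambled guide (n = 2 libraries), both grown in vitro. Chromatin was tagged with Tn5 transposase by the Omni-ATAC procedure, which inserts sequencing adapters into accessible DNA, with 50000 cells per reaction. The labels do not say whether each line was a clone or a pool, how much ARID1A protein was left, or whether the replicates were separate cultures, so their spread may be technical. In the sgScramble lists the peak names start with sgNT, and the sample titles set the groups.

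ARID1A belongs to the BAF complex, a remodeller of the SWI/SNF family that uses ATP to move or evict nucleosomes and is known for keeping enhancers open. Mouse chromosome 16 carries gene-dense stretches in its proximal part and long gene-poor stretches around the axon guidance receptor genes Robo1 and Robo2. A distal block shares its gene order with the human chromosome trisomic in Down syndrome. That block holds the genes of the type I interferon receptor chains Ifnar1 and Ifnar2 and of the transcription factor Runx1.

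A region is called lost when both sgScramble lists had a peak in it and neither sgArid1a list did, and gained when the reverse held. Promoters on the chromosome were mostly retained, and 4 are shown because they carry the contrast between lost and retained starts. Cd96, an immune receptor of T and NK cells, and Dop1b, a gene for an endosome and Golgi trafficking protein, had promoter windows with peaks in the sgScramble lists alone. The Dop1b window is at an internal annotated start, and the window at the start of that gene was open in all 4 lists. Gsk3b, a kinase of the Wnt and insulin pathways, and Ifnar1 had promoters open in all 4 lists. Each sequence is the RefSeq window of 250 bases before to 50 after an annotated start in GRCm38.p6, 5′ to 3′ on the gene's strand. Capitals mark the GC box GGGCGG, the ETS motif CCGGAAG, the AP-1 motif TGANTCA, the E-box CACGTG and the TATA motif TATAAA. All were searched on both strands, and overlapping matches run together.
Cd96: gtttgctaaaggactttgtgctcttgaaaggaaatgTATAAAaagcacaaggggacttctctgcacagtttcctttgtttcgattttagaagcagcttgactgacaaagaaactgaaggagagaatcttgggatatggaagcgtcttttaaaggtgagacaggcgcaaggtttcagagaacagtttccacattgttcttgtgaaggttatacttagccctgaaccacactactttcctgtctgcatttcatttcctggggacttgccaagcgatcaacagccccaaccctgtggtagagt
Dop1b: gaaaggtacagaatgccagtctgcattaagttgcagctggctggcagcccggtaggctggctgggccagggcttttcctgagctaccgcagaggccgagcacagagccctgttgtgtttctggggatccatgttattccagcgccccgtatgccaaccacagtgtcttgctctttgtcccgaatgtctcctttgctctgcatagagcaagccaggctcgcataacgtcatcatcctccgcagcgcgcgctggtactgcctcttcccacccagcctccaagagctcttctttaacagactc
Gsk3b: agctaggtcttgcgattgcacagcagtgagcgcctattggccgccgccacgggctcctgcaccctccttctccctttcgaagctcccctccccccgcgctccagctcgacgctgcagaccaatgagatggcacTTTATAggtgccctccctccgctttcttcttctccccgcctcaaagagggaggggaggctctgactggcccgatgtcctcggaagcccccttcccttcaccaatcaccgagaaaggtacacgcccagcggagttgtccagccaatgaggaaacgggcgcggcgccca
Ifnar1: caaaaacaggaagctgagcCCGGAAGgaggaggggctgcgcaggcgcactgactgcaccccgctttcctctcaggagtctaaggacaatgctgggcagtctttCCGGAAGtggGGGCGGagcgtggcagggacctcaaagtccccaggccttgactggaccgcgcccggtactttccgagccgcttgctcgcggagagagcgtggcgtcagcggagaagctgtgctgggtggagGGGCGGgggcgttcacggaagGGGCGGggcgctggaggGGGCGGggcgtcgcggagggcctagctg
The Cd96 window is chr16:46120199-46120498 on the minus strand, with 4 CpG and 43.7% G or C. The Dop1b window is chr16:93729849-93730148 on the plus strand, with 12 CpG and 57.0% G or C. The Gsk3b window is chr16:38088751-38089050 on the plus strand, with 21 CpG and 63.0% G or C, and the Ifnar1 window is chr16:91484965-91485264 on the plus strand, with 26 CpG and 68.3% G or C. Cd96 holds 1 TATAAA, Gsk3b holds 1 on the reverse strand (printed as TTTATA), Dop1b holds none of the 5 motifs, and Ifnar1 holds 4 GGGCGG and 2 CCGGAAG. Matches are a description of the letters and were not tested as binding sites.

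Chromosome 16 had fewer peaks in sgArid1a than in sgScramble cells, and the proportional difference was larger than that of the whole lists. The sgArid1a lists held 2253 and 2501 chromosome 16 peaks, against 2993 and 3164 in the sgScramble lists. The means were 2377 ± 175.4 in sgArid1a and 3078.5 ± 120.9 in sgScramble (SD, n = 2 each), a difference of -22.8%, where the whole lists (65353 and 71255 sgArid1a peaks, 82319 and 85613 sgScramble peaks) differed by -18.7%. Both sgArid1a lists lay below both sgScramble lists, and the gap between group means exceeded the spread within either group. The whole lists showed the same separation. As the chromosome was chosen on its number of peaks, this is a description only.

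The chromosome's share of each list was 3.45% and 3.51% in sgArid1a, against 3.64% and 3.70% in sgScramble, a difference of -0.187 points. The ratio of the group means, 0.949, was the lowest of 20 chromosomes (1 to 19 and X), whose highest was 1.03 on chromosome 11. Chromosome 14 was close, at 0.954, and chromosomes X, 18, 10 and 13 had 0.970 to 0.971. Covered length on the chromosome was 1.80 and 2.13 Mb in sgArid1a, against 2.61 and 2.68 Mb in sgScramble, and the median peak was 673 and 721 bp wide in sgArid1a and 738 and 720 bp wide in sgScramble. With 2 libraries a group, an exact permutation test over samples cannot give a p below 0.333, and none was run on the contrast that chose the chromosome. The lists hold no read counts, so depth is unknown, and a shorter sgArid1a list from lower depth cannot be told apart from fewer open regions.

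Of the 3772 regions, 1833 (48.6%) had a peak in all 4 lists, where 51.1% of regions on other chromosomes did. Of the 2653 regions in both sgScramble lists, 412 were lost, or 15.5% (exact 95% binomial interval 14.2 to 16.96). The share over all chromosomes was 12.9%, and over the other chromosomes 12.7% (8976 of 70403). Of the 1922 regions in both sgArid1a lists, 24 were gained, or 1.249%, where 1.39% were gained over all chromosomes. Losses therefore stood above the background share and gains near it. Intervals cover counting error over regions only, and neighbouring regions are not independent.

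The 2 sgArid1a lists did not miss the same number. On chromosome 16, 294 of the 2653 regions were missing only from sgArid1a replicate 1 and 114 only from replicate 2, so replicate 1 missed 26.6% in all and replicate 2 missed 19.8%. Both exceeded the share of one sgScramble list missing from the other, which was 10.9% of the replicate 1 regions and 15.3% of the replicate 2 regions, although those shares have 1 list as their base. Without sgArid1a replicate 2 the lost share was 26.6%, and without sgScramble replicate 1 it was 24.1%, because a list fewer is then required to hold or to lack a peak. The lost share was the highest of 20 chromosomes, of which the lowest was 10.6% on chromosome 11 and the median 13.0%. Chromosomes 18 and 14 came next, with 14.35% and 14.33%.

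In 5 Mb windows, open regions were unevenly spread. From 10 to 25 Mb and in the windows at 30 to 35 Mb and 90 to 95 Mb, each window held at least 300 regions, with 401 and 413 in the last 2 named. Density over the full windows ran from 14.2 to 82.6 regions per Mb, with a median of 31.6. The sparsest window, 80 to 85 Mb, had 71 regions and 5 protein-coding genes, and the window at 90 to 95 Mb had 52 genes.

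**Figure D1:**
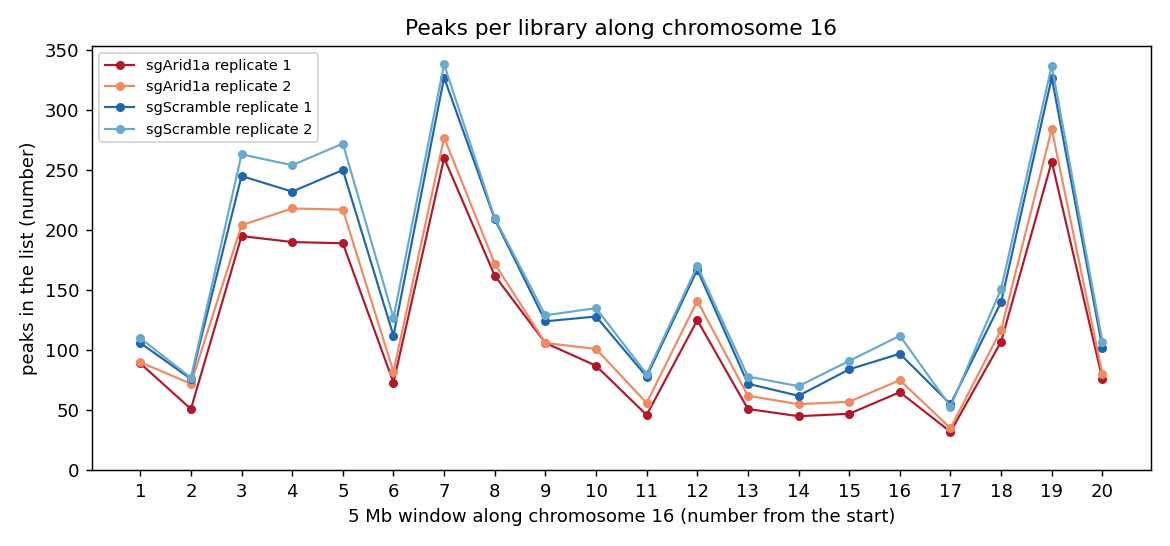
Peaks on chromosome 16 in each 5 Mb window, numbered from the start of the chromosome (x axis), in each library (y axis, number of peaks), with sgArid1a replicates in reds and sgScramble replicates in blues. Both sgArid1a lines lie below both sgScramble lines in all 20 windows, and windows 7 and 19 are the highest for every library.

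In all 20 windows both sgArid1a lists held fewer peaks than both sgScramble lists. The whole lists were separated in the same way, and such windows were not counted on the other chromosomes. The separation therefore cannot be called particular to chromosome 16. The difference of group means ran from -16.05% at 15 to 20 Mb to -40.6% at 70 to 75 Mb. At 70 to 75 Mb, the window of Robo1 and Robo2, the sgArid1a lists held 47 and 57 peaks, against 84 and 91 in the sgScramble lists. At 90 to 95 Mb, the window of Ifnar1 and Runx1, they held 257 and 284 peaks in sgArid1a, against 327 and 337 in sgScramble. The sparse window at 80 to 85 Mb had 32 and 35 peaks in sgArid1a, against 55 and 53 in sgScramble. Sparse windows did not all differ this much: the difference was -19.6% at 5 to 10 Mb, which held as many regions as 70 to 75 Mb, and -16.2% at 40 to 45 Mb.

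The share of regions lost ran from 10.6% at 0 to 5 Mb to 31.1% at 70 to 75 Mb, where 23 of 74 regions were lost (interval 20.8 to 42.9). It passed 20% in 5 of the 20 windows. The others were 25 to 30 Mb (24 of 99, 24.2%), 50 to 55 Mb (17 of 70, 24.3%), 75 to 80 Mb (19 of 89, 21.3%) and 80 to 85 Mb (13 of 44, 29.5%). On the other chromosomes, 27 of 440 windows with at least 40 regions in both sgScramble lists (6.14%) passed 20%, and their highest was 27.7%. Chromosome 16 windows held a median of 152.5 regions against 200.5 in those windows. sgArid1a replicate 1 missed more regions than replicate 2 in all 20 windows, with shares of 17.02 to 45.5% in replicate 1 and 11.7 to 34.1% in replicate 2. Gains were scattered, with 7 windows holding none and at most 5 in 1 window (40 to 45 Mb).

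Lost regions lay farther from gene ends than regions in all 4 lists (median 30762.5 bp against 14743 bp) and ranked lower in signal, so each was set against regions of like distance and rank elsewhere. The same held on the other chromosomes, with median distances of 24309.5 bp and 11457 bp. Within 1 kb of a protein-coding gene end, 11 of 435 chromosome 16 regions were lost (2.53%), where the other chromosomes lost 3.10%. At 50 to 100 kb the shares were 20.4% (67 of 329) on chromosome 16 and 15.9% elsewhere, and over 100 kb they were 23.9% (106 of 443) and 19.8%. Regions over 100 kb from a gene end made up 16.7% of the chromosome's regions in both sgScramble lists, where they made up 11.9% elsewhere.

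**Figure D2:**
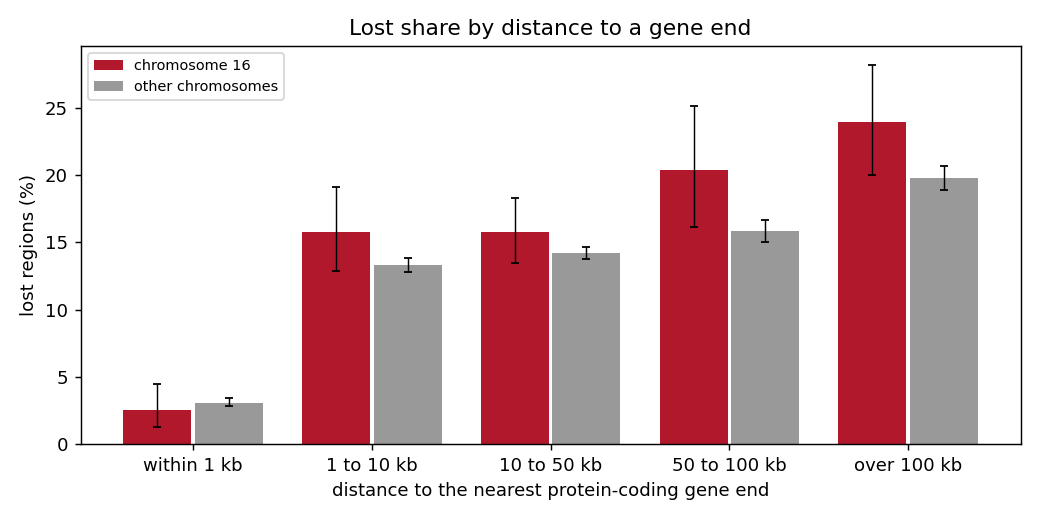
Lost share (y axis, percent of regions in both sgScramble lists) by distance to the nearest protein-coding gene end (x axis), on chromosome 16 (red) and the other chromosomes (grey), with exact 95% binomial intervals. The share is 2.53% on chromosome 16 within 1 kb and 23.9% over 100 kb.

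The authors' fold, a ratio of signal over background for each peak, was used only as a percentile within its own list. Lost regions had a median sgScramble fold percentile of 29.9, where those in all 4 lists had 70.0. On the other chromosomes these medians were 27.7 and 65.3. Among 10 equal percentile classes, the lowest lost 43.0% on chromosome 16 and 32.6% elsewhere, and class 7 lost 10.1% and 5.58%. Class 9 went the other way, with 0.639% lost on chromosome 16 and 1.36% elsewhere, and the highest class lost 0.619% on chromosome 16 and 0.356% elsewhere. Of all lost regions, 0.971% lay above the 80th percentile on chromosome 16 and 1.53% elsewhere. Above the 50th percentile and over 100 kb from a gene end, 38 of 284 regions were lost on chromosome 16 (13.4%, interval 9.65 to 17.9), where 8.65% were lost elsewhere. Above that percentile within 1 kb of a gene end, 0 of 319 were lost, for which the exact interval reaches 1.15%, where the other chromosomes lost 0.469%. In 10 classes by the authors' −log10 p instead, classes 8, 9 and 10 lost 0 of 282, 0 of 265 and 0 of 312 on chromosome 16. The exact intervals reach at most 1.38%. Elsewhere these classes lost 0.47%, 0.0869% and 0%.

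**Figure D3:**
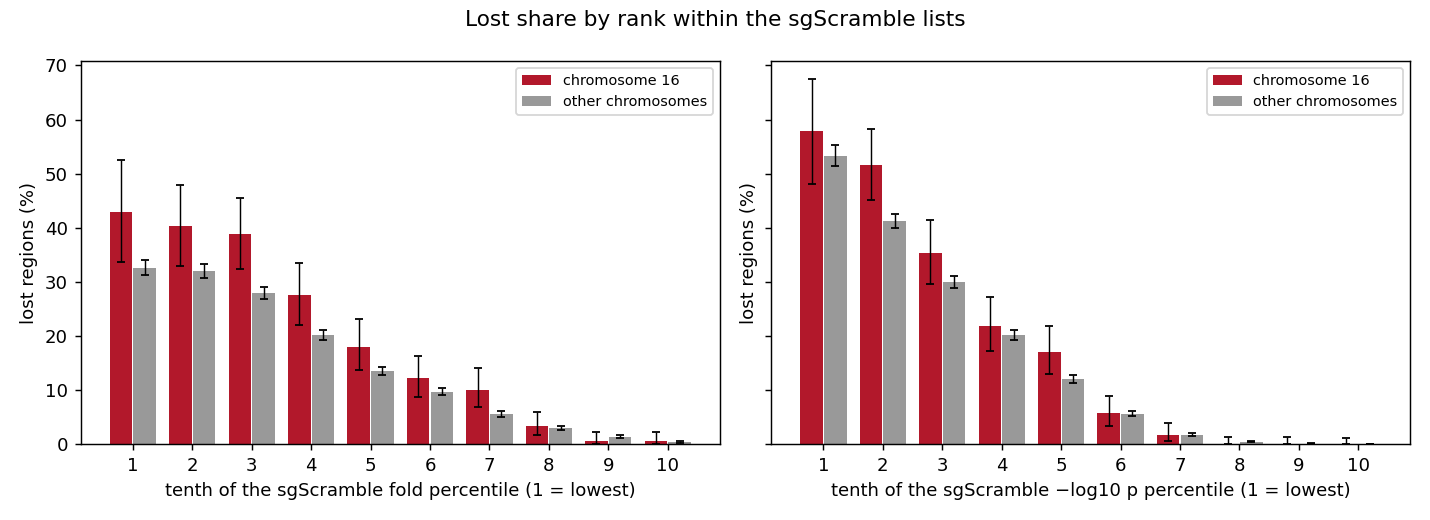
Lost share (y axis, percent of regions in both sgScramble lists) by class of the mean sgScramble fold percentile (x axis, 10 classes from low to high) on chromosome 16 and the other chromosomes. On chromosome 16 the share is 43.0% in the lowest class and 0.619% in the highest.

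If each region had been lost at the rate of its distance class and fold percentile class on the other chromosomes, 325.6 losses were expected, against 412 counted. The ratio of counted over expected was 1.27 (1.15 to 1.39), the second highest of 20 chromosomes after X at 1.43, where chromosome 11 had 0.775. The fold percentile itself differed between chromosomes, with a median of 58.8 on chromosome 16 among regions in both sgScramble lists, 63.5 on X and 49.6 on chromosome 6. Ranked instead by the authors' −log10 p, in strata chosen after the data were seen, the ratio was 1.15 (1.04 to 1.27). This was the highest of 20 chromosomes by a narrow margin, at 1.149, with chromosome 10 at 1.147 and chromosome 3 at 1.137. Both of those values lay inside the interval of chromosome 16, so this rank does not set chromosome 16 apart from them. With fold ranked among the peaks of the same chromosome only, also chosen after the data were seen, the chromosome 16 ratio was 1.17 (1.06 to 1.286). The ratio was thus smaller, and above 1, under both other rankings. It was 1.10 (0.9996 to 1.22) at a −log10 q of at least 5, 1.09 (0.956 to 1.24) in the upper 50% of each list by fold and 1.09 (0.957 to 1.23) with peaks of at least 500 bp, all with intervals that include 1.

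**Figure D4:**
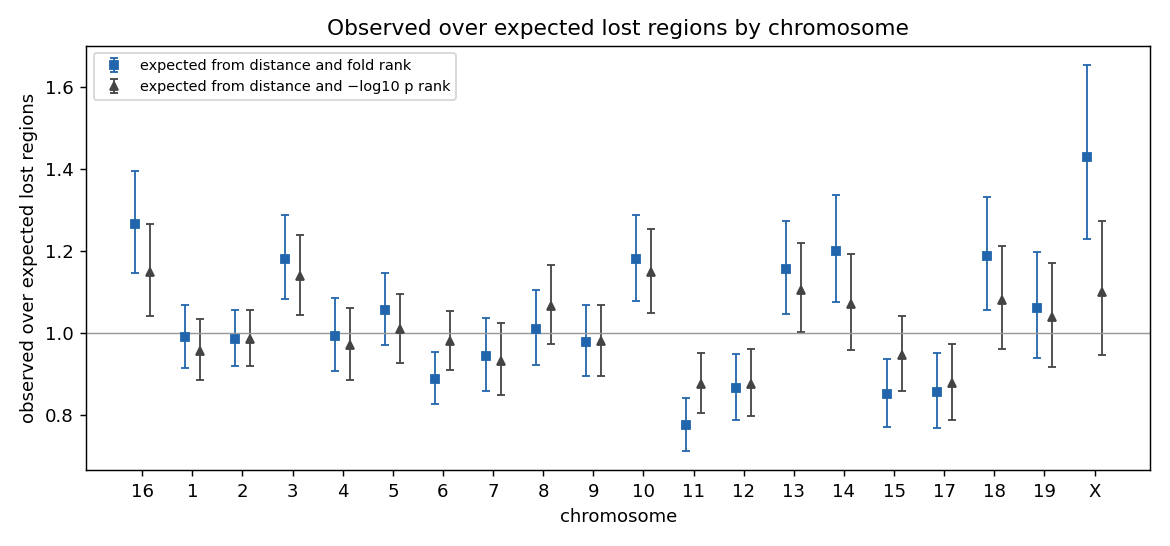
Counted over expected lost regions (y axis, ratio) for each of 20 chromosomes (x axis), with expectation by distance and fold rank or by distance and −log10 p rank. Chromosome 16 stands at 1.27 by fold rank and 1.15 by −log10 p rank.

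By fold rank, the ratio of counted over expected losses ran from 0.849 to 2.12 over the 20 windows, and by −log10 p rank from 0.892 to 1.66. It was above 1 in 16 windows by fold rank and in 13 by −log10 p rank. The window at 80 to 85 Mb had 2.12 by fold rank and 1.65 by −log10 p rank, and that at 25 to 30 Mb had 1.97 and 1.66. The windows at 45 to 50 Mb, 50 to 55 Mb, 70 to 75 Mb and 95 to 100 Mb had 1.82, 1.72, 1.77 and 1.75 by fold rank and 1.28, 1.44, 1.51 and 1.53 by −log10 p rank. These 6 are the windows whose 95% interval lay above 1 by fold rank, an interval that treats regions as independent. Such windows were not counted on the other chromosomes, so their number is a description without a background share. All 6 were lower by −log10 p rank and still above 1. By that rank only the interval at 25 to 30 Mb lay above 1 (1.06 to 2.46), and the rest included 1. At 70 to 75 Mb the ratio by fold rank turned to 0.732 at the stricter q. At 95 to 100 Mb it turned to 0.948 in the upper 50% and 0.962 with peaks of at least 500 bp.

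**Figure D5:**
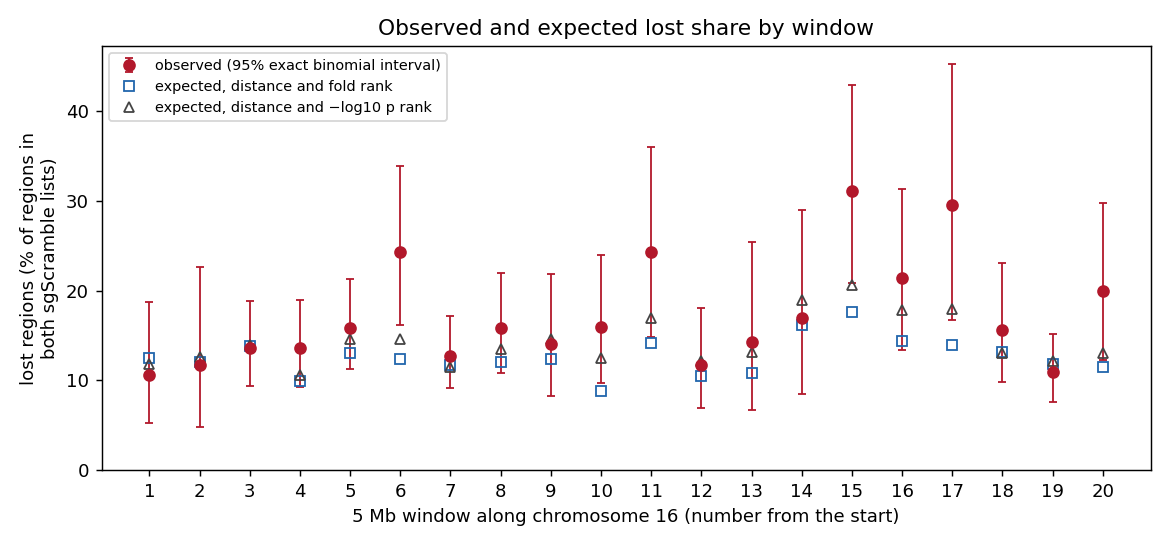
Lost share (y axis, percent of regions in both sgScramble lists) counted in each 5 Mb window of chromosome 16 (x axis, window number), beside the share expected by distance and rank on the other chromosomes. The highest counted share is 31.1%, in window 15.

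The stretch from 65 to 85 Mb, whose bounds were set after the windows were seen, holds Robo1, Robo2 and Cadm2 and 26 protein-coding genes in all. It lost 65 of 266 regions (24.4%, interval 19.4 to 30.1), where the rest of the chromosome lost 347 of 2387 (14.5%, 13.1 to 16.02). In it, 61.7% of regions lay over 100 kb from a gene end, where 11.7% did in the rest. Its ratio was 1.57 (1.21 to 1.996) by fold rank and 1.293 (0.998 to 1.65) by −log10 p rank, and the rest had 1.22 and 1.13. Within the stretch, the window at 65 to 70 Mb, which holds Cadm2, lost 10 of 59 (16.9%). The ratio of that window was 1.05 (0.503 to 1.93) by fold rank and 0.892 (0.428 to 1.64) by −log10 p rank. Some lost regions were also neighbours of each other. On chromosome 16, 145 of the 412 (35.2%) had a lost neighbour, where 26.1% did elsewhere. That share rises with the lost share itself, which was 15.5% on chromosome 16 and 12.7% elsewhere. The 2 neighbour shares therefore do not measure clustering, which was not tested. The longest run of consecutive lost regions was 4 on chromosome 16 and 5 elsewhere. Runs of 4 lay near Snap29, a gene for a membrane fusion protein (chr16:17364406-17401538), between Ccdc54 and Cblb and at least 317558 bp from a gene end (chr16:51050647-51713672), near the adhesion gene Cadm2 (chr16:67119219-67244882), and near Robo2 (chr16:73831649-73870881).

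The 8 strongest lost regions by mean sgScramble fold percentile lay 5757 to 613204 bp from a gene end. Those nearest to Robo2, Epha6 and Cadm2 lay over 100 kb away, and the others at most 59851 bp. The strongest, at chr16:74505180-74505771, lay inside Robo2, the gene of an axon guidance receptor for Slit proteins. It was 613204 bp from the nearer end of Robo2, with percentiles of 95.1 and 88.5 in the sgScramble lists. The second, at chr16:61171864-61172358, was nearest to Epha6, an ephrin receptor gene, and had 95.9 and 85.8. Others were inside Bmerb1, inside Nrip1 (a nuclear receptor corepressor gene), inside Cadm2, and near Cd47, whose product binds SIRPα on macrophages, with mean percentiles of 87.2, 84.8, 79.9 and 79.7. The remaining 2 of the 8 were near Dppa2, a gene of pluripotent cells, and Mb21d2, with 79.2 and 78.3. These ranks are by fold. By −log10 p the mean sgScramble percentiles of the same 8 regions ran from 54.5 near Dppa2 to 64.3 near Epha6. By that measure all 8 therefore lay in the middle ranks of the lists.

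Among gained regions, the strongest was near Ccdc54 at chr16:50841080-50842127, with sgArid1a percentiles of 79.9 and 54.1. A region inside Nsun3, a mitochondrial tRNA methyltransferase gene, had 88.4 and 37.3. The next were near Eef2kmt, in Lsamp (a neural adhesion gene, 2 regions), in Kalrn (a guanine nucleotide exchange factor gene), over an end of the mucin gene Muc20 and near Bex6, with mean percentiles of 22.9 to 37.1. These were the strongest of 24 gained regions, where the strongest lost ones came from 412, so the 2 sets of top ranks are not comparable. Over all gained regions the median fold percentile in the sgArid1a lists was 18.7. Over all lost regions the median in the sgScramble lists was 29.9.

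Among regions in all 4 lists, peaks also covered less length in sgArid1a, more so over 1 kb from a gene end. At the 390 gene-end regions of chromosome 16 covered length was 90.9% and 95.02% of the sgScramble mean in the 2 sgArid1a lists. At the other 1443, many of them inside genes, it was 79.0% and 88.7%. On the other chromosomes it was 90.2% and 95.5% at gene ends and 80.9% and 90.6% at the rest, so chromosome 16 was close to them. The strongest such region by fold, inside the zinc finger gene Zc3h7a at chr16:11143907-11144312, had folds of 15.97 and 14.4 in sgArid1a and 16.01 and 16.2 in sgScramble. One inside Filip1l at chr16:57391143-57391676 had 14.2 and 14.1 in sgArid1a and 14.7 and 14.7 in sgScramble. The others of the 5 strongest were nearest to Olfr161, Hunk and Rimbp3. The 5 widest were 5706 bp nearest to the odorant receptor gene Olfr161, 5000 bp near Mrps6, 4808 bp near Tra2b, 4024 bp over Hes1 (a Notch target gene) and 3976 bp in Tiam1 (a Rac exchange factor gene).

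At promoters losses were rare. Of 670 annotated starts of 568 genes of the 679 protein-coding genes on chromosome 16, a peak overlapped the window of 360 and 365 in the sgArid1a lists and of 375 and 379 in the sgScramble lists. Of 368 open in both sgScramble lists, 6 (1.63%, interval 0.601 to 3.51) were open in neither sgArid1a list, where the share over all chromosomes was 1%. These were the starts of Nlrc3, P2rx6, Hcls1, Cd96, St3gal6 and Dop1b. St3gal6, like Dop1b, had another start open in all 4 lists. Only at Cd96 and Dop1b, printed above, was the merged region lost too. At Cd96 (chr16:46120019-46121607) the sgScramble fold percentiles were 11.7 and 19.3, and at Dop1b (chr16:93729143-93730458) they were 16.9 and 17.3, both low in those lists. At Nlrc3, P2rx6, Hcls1 and St3gal6 a sgArid1a peak remained in the merged region but did not reach the 300 bp window.

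The 355 promoters open in all 4 lists had a median of 23 CpG and 63.7% G or C, where the 282 open in none had 3 and 45.3%. GGGCGG occurred in 69.0% of promoters open in all 4 lists and in 14.9% of those open in none, CCGGAAG in 24.2% and 2.84%, and TATAAA in 4.79% and 30.9%. Over all promoters of the genome GGGCGG was present in 46.2%, CCGGAAG in 11.6%, TATAAA in 12.6%, TGANTCA in 6.99% and CACGTG in 7.84%. The Cd96 window resembled the unopened promoters in base composition, and the Ifnar1 and Gsk3b windows those open in all 4 lists. The Dop1b window, with 12 CpG and 57.0% G or C, lay between the medians of those open in all 4 lists and those open in none.

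At gene ends, including 3′ ends, 11 regions within 1 kb were lost, nearest to Sec14l5, Carhsp1, Rimbp3, Opa1, Senp5, Slc51a, Arhgap31, Cd96, Myh15, St3gal6 and Cct8. Their mean sgScramble fold percentiles ran from 0.892 at St3gal6 to 31.8 at Opa1, so all of them lay in the lower ranks of the lists. The region near St3gal6 lies inside Dcbld2 and that at Cct8, a chaperonin subunit gene, inside Usp16.

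Gene by gene, each region went to the protein-coding gene whose end lay closest, up to 50 kb away. Of 679 genes, 532 had such a region and 172 had a lost one. They held 1881 regions in both sgScramble lists, of which 239 (12.7%) were lost. Gsk3b had the most losses, 6 of 14, with sgScramble percentiles from 4.80 to 40.7 among the lost ones. The region over its start (chr16:38087781-38089960) was in all 4 lists, and its peaks covered 2100 and 2116 bp in sgArid1a and 2096 and 2164 bp in sgScramble. The lost regions around Gsk3b did not include the promoter printed above. Lpp, encoding a focal adhesion protein, lost 4 of 13, and the ketone body enzyme gene Bdh1 lost 4 of 10. The 12 genes with 3 losses were Igf2bp2 (of 14), Arhgap31 (of 12), Bace2 (of 11), Parn (of 10), Hacd2 (of 9), Scaf4 (of 9), Bcl6 (of 6), Slc12a8 (of 6), Snap29 (of 5), Senp5 (of 5), Hgd (of 4) and Robo2 (of 3). Among genes with the most regions, Litaf lost 1 of 14, Tmem44 1 of 13, Cldn14 2 of 13, Clec16a 2 of 12, and Mrtfb, Vps8 and Tiam1 1 of 12 each.

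Interferon and cytokine receptor, antiviral and interferon-response genes lost 5 of 59 regions (8.47%) and gained 0, over 12 genes matched of 14 (Mx1 and Mx2 were not matched to a protein-coding gene). Ifnar1 lost 0 of 6 and Ifnar2 lost 0 of 8, while Litaf lost 1 of 14, Rtp4 1 of 6 and Ciita, the MHC class II activator gene, 1 of 5. Immune surface protein genes lost 6 of 48 (12.5%), with 2 of 7 at Btla, an inhibitory receptor, 1 of 6 at both Alcam and Cblb, an intracellular ubiquitin ligase gene in the same list, and 0 of 6 at the transferrin receptor gene Tfrc.

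Transcription factor genes lost 12 of 100 regions (12%) and gained 1, at Hmgn1. Bcl6, a repressor of germinal centre B cells, lost 3 of 6, Trp63 2 of 3, Hes1 1 of 6 and Runx1 1 of 6, and Bach1 lost 0 of 9 and Vgll3 0 of 8. Kinase and signalling genes lost 14 of 105 (13.3%) and gained 2, of which 1 was at Kalrn. Beside Gsk3b, Tiam1 lost 1 of 12, Rcan1 (a calcineurin regulator) 1 of 11 and Prkdc (the DNA-PK catalytic subunit) 1 of 2, and Hunk lost 0 of 11.

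Adhesion and guidance genes had the highest share of these lists, 14 of 74 (18.9%, interval 10.8 to 29.7), with Robo2 at 3 of 3, Epha3 at 2 of 5, and Nectin3, Igsf11 and Boc at 1 of 9, 1 of 8 and 1 of 7. Matrix and secreted protein genes lost 10 of 64 (15.6%) and gained 1, at App, the gene of the amyloid precursor protein. The list also held Igf2bp2, which encodes an intracellular RNA-binding protein and lost 3 of 14. Of the others, Masp1 lost 2 of 4, Col8a1 2 of 9, App 1 of 11 and St6gal1 1 of 10. Housekeeping genes lost 7 of 39 (17.9%), with 2 of 7 at Opa1 (a mitochondrial fusion gene), 2 of 3 at Tomm70a, 1 of 5 at Cct8 and 0 of 3 at Eif4g1. The 7 lists ran from 8.47% to 18.9% beside 12.7% for all the chromosome's regions within 50 kb of a gene end.

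Counts within gene bodies gave long genes more regions than the 50 kb rule. Robo2 held 23 in both sgScramble lists and lost 8, and Lpp likewise lost 8 of 23. Zbtb20, a repressor gene, lost 8 of 34, Robo1 lost 5 of 31, Cadm2 lost 5 of 14 and Snx29 lost 2 of 26, all 4 chosen after their values were seen. Cadm2 and Robo2 lost a larger share than Snx29, and the difference was not tested.

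As a check of the cell label, all 6 melanocyte genes examined (Mitf, Tyr, Dct, Pmel, Mlana and Sox10) had a peak within 1 kb of an end in all 4 lists. Of the markers of other cell types, Ptprc, Alb, Cdh5 and Epcam had none in any list, and Cd3e had one in sgArid1a replicate 2 and sgScramble replicate 1.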

How the data were processed

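ATAC-seq (Omni-ATAC, 50000 cells per reaction, per the labels' protocols) was done on 2 sgArid1a and 2 sgScramble libraries, grouped by sample title. The authors deposited 1 broad peak list per library. Each peak's score, fold (a ratio of signal over background), −log10 p-value and −log10 q-value are as the authors deposited them. The submitters' processing notes name STAR 2.5.3a, HOMER, GRCm38 and mm10 without roles, and the peak caller is not given in the sources used here. With no counts in the lists, precision is known only over regions.

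Peaks were merged at an overlap of 1 bp, and expected losses used 5 distance classes by 10 fold percentile classes on the other chromosomes. Gene positions were those of RefSeq GRCm38.p6, in a table that gives no strand, so gene ends were used. Promoters came from the RefSeq promoter table. A genome sequence was not used here. Intervals are exact binomial or, for ratios, exact Poisson, at 95%. The merging steps were tested on simulated data. Named genes were, per list, the 4 with most regions and 3 with most losses, the 10 with most of each on the chromosome, the 8 strongest lost and gained regions, losses within 1 kb of gene ends, the 5 widest and strongest regions in all 4 lists, and Gsk3b, Ifnar1, Runx1 and Prkdc. Some genes this rule names are not reported here.

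The chromosome, gene lists and rules were chosen with earlier results of these data known. Strata by −log10 p and by fold within a chromosome were added after the data were seen. Other alternatives were a stricter q, equal-length lists, upper ranks, wider merging, a width minimum, other strata, shifted windows and leaving out each library. Software was Python 3.11.15 with SciPy 1.17.1, numpy 2.4.6, matplotlib 3.10.9 and pandas 2.3.3.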

Additional observations from a re-analysis of the deposited data

How the results depend on the processing

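The lost share of 15.5% was 23.8% at a −log10 q of at least 5 and 14.1% with peaks of at least 500 bp. It was 4.06% with presence by the upper 50% and absence against full lists, and 19.8% to 26.6% when a library was left out. With lists of equal length it was 8.88%, where the other chromosomes ran from 5.08% (chromosome 11) to 8.77% (chromosome 18). Lost shares elsewhere are not given for the other settings, nor gained shares for any, so those changes cannot be called particular to chromosome 16. The gained share of 1.249% was 0.0926%, 4.67%, 3.97% (upper 50% of each list) and 0.0903% (presence by the upper 50%) under the stricter q, equal length and these rank settings, and 2.70% to 7.41% when a library was left out. The ratio of 1.27 was 1.10 at the stricter q, 1.09 in the upper 50%, 1.09 with peaks of at least 500 bp and 1.44 with rates from chromosome 6 only, and 1.18 to 1.21 without a library. The share difference of -0.187 points was -0.142 with equal length and -0.103 with peaks of at least 500 bp, and -0.218 to -0.156 without a library. It stayed negative in all of these. Reversals were listed only for the 6 windows whose interval lay above 1 by fold rank. Among these, ratios turned below 1 at 70 to 75 Mb under the stricter q (0.732). At 95 to 100 Mb they did so in the upper 50% (0.948) and with peaks of at least 500 bp (0.962). Other windows turned too: at 40 to 45, 55 to 60 and 65 to 70 Mb the ratios were 1.13, 1.12 and 1.05 by fold rank. By −log10 p rank they were 0.963, 0.963 and 0.892. The causes were not tested. With lists of equal length chromosome 16 still ranked 1 of 20 in lost share and 2 in ratio. Among window lost shares 111 recomputed values moved by less than their interval and 89 by more. With no counts, depth is unknown. No paired analysis was possible because the results come from no test, and nothing in the labels ties equal replicate numbers to a shared batch.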

Other observations

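RefSeq places 30 miRNA hairpins on chromosome 16, and 8 lay inside an open region. Those of Mir1945, Mir301b, Mir3081, Mir484, Mir6367 and Mir802 lay in regions found in all 4 lists, and that of Mir185 in a region found in some lists. The Mir8095 hairpin lay in a lost region (chr16:22531957-22532625), with a mean sgScramble fold percentile of 16.5.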
